A study of Mus musculus with 54 samples.

Results

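The end stage of rod loss in the rd1 retina was read from 4 of the 54 arrays of a postnatal time course of mouse neural retina. These are the rd1 arrays of postnatal day (PN) 28 and PN35 and the wild-type (WT) arrays of the same days, with 1 array for each genotype and age. All animals were C3H mice. The WT mice carried 2 intact copies of the gene for the rod phosphodiesterase subunit Pde6b, and the rd1 mice carried the rd1 allele of that gene on both chromosomes, in every cell of the body. The labels name no treatment. The PN28 and PN35 arrays of a genotype were taken as its 2 replicates, and each of the 18193 genes with a symbol in the array annotation was compared between rd1 and WT. The labels call the arrays biological replicates but do not say how many animals gave RNA to an array. The p-values therefore measure the spread between arrays, which may hold technical as well as biological variation. In the fit that spread came mostly from the arrays of the other ages.

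Rods detect dim light. Light-activated rhodopsin switches on the G protein transducin, transducin activates the phosphodiesterase, and the fall in cyclic GMP closes a cation channel in the outer segment. In rd1 mice the phosphodiesterase is defective and rods die in the weeks after birth, followed much more slowly by cones, which use their own versions of many of these proteins. Bipolar, horizontal, amacrine and ganglion cells relay the signal, Müller glia span the tissue, and microglia are its resident macrophages. Around the time of weaning the rd1 retina thus retains cones, inner neurons and glia but few rods.

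Values are log2 intensities of 1 probe set per gene. A difference is rd1 minus WT on the log2 scale, so that 1 corresponds to 2-fold, and is given with the standard error (SE) of the limma fit after the sign ±. A gene is called higher or lower, or said to have risen or fallen, when limma's Benjamini-Hochberg adjusted p over all genes was below 0.05. Rises and falls are thus between the genotypes and do not describe a change with age. Intensities of different probe sets are not comparable as amounts of RNA, so levels are compared between arrays only. Median intensity was 127.7 to 131.5 per array. Over all genes the 2 WT arrays correlated at r = 0.996, as did the 2 rd1 arrays, and an rd1 and a WT array at 0.966 to 0.969. The SD of the log2 difference was 0.17 between the WT arrays and 0.18 between the rd1 arrays, against 0.51 to 0.53 between genotypes and a median of 0.17 over the 40 replicate pairs of the other ages.

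The rd1 retina at PN28 and PN35 read far lower than WT for the genes of rods and, on the deposited scale, higher for many genes of inner neurons and glia. Of the 18193 genes, 6518 (35.8%) were called, 4092 higher (22.5%) and 2426 lower (13.3%) in rd1. Changes of 2-fold or more were found in 671 genes (3.69%) and were mostly falls, with 421 genes lower (2.31%) and 250 higher (1.37%), and those of 4-fold or more almost all were, with 157 lower and 4 higher. Of the called genes 6514 had the same sign at both ages, and in 6499 the rd1 arrays did not overlap the WT arrays. Without regard to the call the arrays did not overlap in 65.7% of all genes. Across genes the difference at PN28 and that at PN35, which share no array, correlated at Pearson's r = 0.910 and Spearman's rho = 0.794. Genes are not independent replicates.

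**Figure D1:**
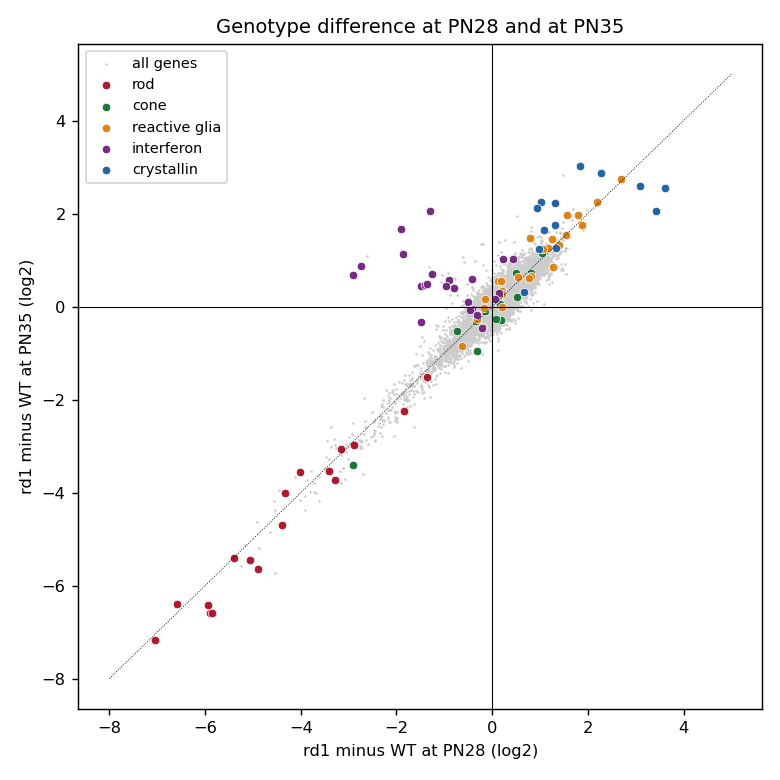
Each grey point is a gene, with its rd1 minus WT log2 difference at PN28 on the x axis and at PN35 on the y axis (1 array per genotype and age), and coloured points mark rod, cone, reactive glia, interferon and crystallin genes. Rod genes lie together far below 0 at both ages, most reactive glia genes lie above 0, and 14 of the 23 interferon genes are below 0 at PN28 and above 0 at PN35.

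The split between higher and lower calls depended on how arrays were made comparable. The deposited values give all arrays nearly the same distribution, so a difference is relative to the whole array. When every array was centred on the mean of the amacrine and ganglion cell genes instead, differences shifted by -0.66, the median over all genes went from -0.0092 to -0.67, and of 15946 genes called (87.6%) 468 were higher (2.57%) and 15478 lower (85.1%). Quantile normalization gave 3924 higher and 2978 lower. For the lists of genes below the median difference on the centred scale is therefore given beside that on the deposited scale, and for some the counts of higher and lower genes as well. The counts of each list stand beside 22.5% higher and 13.3% lower over all genes. In a bulk sample, fewer cells of a type and less RNA per cell cannot be told apart.

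Rod genes showed the largest falls of all genes. Pde6b itself, which carries the mutation, read 13.41 and 13.38 at PN28 and PN35 in WT and 6.35 and 6.21 in rd1, a difference of -7.11 ± 0.20 (138-fold lower, adjusted p = 6.28e-29). Gnat1, the transducin alpha subunit of rods, read 14.18 and 14.27 in WT and 8.29 and 7.67 in rd1, -6.25 ± 0.28 apart (75.9-fold lower, 3.06e-22). In both genes the 2 WT arrays were nearly equal and both rd1 arrays lay far beneath them. Slc24a1, the sodium, calcium and potassium exchanger of the rod outer segment, read 12.51 and 12.66 in WT and 5.91 and 6.26 in rd1 (-6.50 ± 0.26). Cnga1, the alpha subunit of the rod channel that cyclic GMP opens, read 12.16 and 12.30 in WT and 6.30 and 5.70 in rd1 (-6.22 ± 0.14). Its partner Cngb1 read 11.81 and 11.70 in WT and 6.42 and 6.29 in rd1 (-5.40 ± 0.11). Nrl, the transcription factor that sets rod fate, read 13.51 and 13.61 in WT and 7.57 and 7.20 in rd1 (-6.17 ± 0.084). For these 4 genes the rd1 arrays again lay together and without overlap below WT.

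All 18 measured rod genes were called lower, where 13.3% of all genes were, with differences from -7.11 to -1.44 and a median of -4.36 (-5.01 centred). The list was written from textbook knowledge with earlier results of these data known, as were all lists below. The catalytic and inhibitory phosphodiesterase subunits Pde6a and Pde6g were at -5.26 ± 0.23 and -3.47 ± 0.10. Guca1b, an activator of the cyclase that restores cyclic GMP, was at -5.25 ± 0.20, and Reep6, a membrane protein of the rod endoplasmic reticulum, at -4.55 ± 0.16. The smallest falls were those of Gnb1, the beta subunit of transducin, at -1.44 ± 0.065, and Sag, the rod arrestin, at -2.04 ± 0.093. Sag still read 12.44 and 12.00 in rd1 against 14.28 and 14.24 in WT, a 4.11-fold difference. The other largest falls were Kcnj14, an inward rectifier potassium channel (-5.41), and Esrrb, an orphan nuclear receptor of rods (-5.14). A second probe set of Esrrb gave -3.01 and another -1.19, so the size of that fall differs by probe set.

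Because rod genes fell together, the 250 bases upstream of their start sites were searched for TAATCC, a site for the photoreceptor homeodomain factor Crx, on both strands. The search covered RefSeq (GRCm38.p6) windows of 14452 of the 18193 measured genes, 11 of the 18 rod genes among them. Genes without a searched window are not in the counts. Of the rod windows 5 of 11 held TAATCC (45.5%), against 9 of 22 of the genes shared by rods and cones (40.9%). Cone genes held it in 4 of 20 windows (20%), ganglion cell genes in 3 of 15 (20%) and Müller glia genes in 3 of 20 (15%). Interferon genes held it in 3 of 24 (12.5%), amacrine genes in 2 of 21 (9.52%) and reactive glia genes in 1 of 26 (3.85%). Over all windows searched it was found in 996 of 18109 (5.5%). TGCTGAC, a partial site of Nrl, was found in 1 of 11 rod windows (9.09%) and in 3.55% of all. A match is a description of the letters and not a site of binding. Stretches of the 5 rod genes that hold TAATCC or its reverse complement GGATTA are shown 5′ to 3′ on the strand of the gene. The match is in capitals. These genes are the searched members of the list that hold it.
Cnga1 (chr5:72642935-72643000, minus strand): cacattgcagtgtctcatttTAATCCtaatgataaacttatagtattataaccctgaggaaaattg
Cngb1 (chr8:95306586-95306663, minus strand): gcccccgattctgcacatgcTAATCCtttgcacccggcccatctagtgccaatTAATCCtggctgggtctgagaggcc
Samd11 (chr4:156255364-156255555, minus strand): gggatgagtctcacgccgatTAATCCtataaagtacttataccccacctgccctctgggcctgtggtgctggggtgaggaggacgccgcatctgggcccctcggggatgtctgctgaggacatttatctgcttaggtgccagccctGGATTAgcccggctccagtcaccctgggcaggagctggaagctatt
Gngt1 (chr6:3993944-3994007, plus strand): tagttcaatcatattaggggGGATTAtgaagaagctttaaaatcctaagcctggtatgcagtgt
Sag (chr1:87803573-87803638, plus strand): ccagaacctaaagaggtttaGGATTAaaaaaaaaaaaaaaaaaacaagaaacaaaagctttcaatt
Cngb1 and Samd11, a SAM domain protein of rods, each hold it more than once. Their falls were -5.40 and -4.16, those of Cnga1, Gngt1 (the gamma subunit of transducin) and Sag -6.22, -2.93 and -2.04. The number of copies was not tested against the size of the fall.

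Genes that rods and cones share fell less far than most rod genes, with a median of -2.81 (-3.46 centred). Of 23 measured, 22 were lower and 0 higher. Rp1, which organises the outer segment axoneme, read 12.34 and 12.35 in WT and 7.47 and 7.17 in rd1 (-5.03 ± 0.12), although a second probe set gave -1.75. Rdh12, a retinol dehydrogenase, read 12.40 and 12.41 and 8.01 and 7.63 (-4.58 ± 0.15), and Prph2, a disc rim protein, 11.89 and 12.27 and 7.33 and 8.10 (-4.37 ± 0.21). In each of them no rd1 array came near the WT arrays. Prph2's disc rim partner Rom1 was at -3.47 and the actin-bundling Fscn2 at -3.99. Falls of about the size of that of Sag were seen for Rbp3, the retinoid carrier of the space around photoreceptors (-2.20), Aipl1, a chaperone of phosphodiesterase (-2.16), and Crx (-2.05). Rgs9, which speeds the shut-off of transducin, was at -3.18 by the reported probe set and at 0.034 by another.

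Among 13 transcription factors of photoreceptors 11 were lower and 0 higher (median -1.09, -1.75 centred). After Nrl and Esrrb the largest falls were Mef2c, a partner of Crx and Nrl at rod genes (-3.85), and Samd7, a Polycomb-associated silencer in rods (-3.85). Prdm1, which biases precursors toward photoreceptor fate, was at -1.77 and Neurod1, a basic helix-loop-helix factor, at -1.09. Smaller falls were those of factors that bipolar or other cells also make, with Otx2 at -0.38 and Rax at -0.62. Rxrg, a nuclear receptor of cones, read 7.96 and 7.87 in WT and 8.13 and 7.92 in rd1 and was not called (0.548).

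Genes of the photoreceptor synaptic terminal fell in 12 of 18 and rose in 3 (median -0.73, -1.39 centred). Cabp4, a calcium-binding protein that tunes the presynaptic calcium channel, read 10.88 and 10.70 in WT and 6.85 and 6.55 in rd1 (-4.09 ± 0.23). The channel's pore subunit Cacna1f was at -1.09. Egflam, or pikachurin, which places bipolar dendrites at the terminal, was at -2.96, the complexin Cplx4 at -2.62 and the glutamate transporter Slc17a7 at -1.74. Cplx3, a complexin of amacrine cells and cones, rose by 0.61 and Elfn2 by 0.68, against a fall of 1.65 for Elfn1, the adhesion protein of the rod synapse. When centred these 2 rises were at -0.048 and 0.020. The ribbon gene Ctbp2 read 11.87 and 11.96 in WT and 11.88 and 11.97 in rd1 (0.016, 0.914), and the mean of its probe sets was lower in rd1 (-0.20, 0.0251).

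Genes of the cilium and its cargo transport fell in 15 of 22 and rose in 3 (median -0.56, -1.22 centred). The Bardet-Biedl syndrome genes Bbs5 and Bbs9 fell by 2.14 and 1.98, Lca5, a ciliary transport protein, by 1.73 and Cep290, of the transition zone, by 1.13. Ift88, an intraflagellar transport protein, fell by 0.28, whereas Ift140 was at -0.043 and was not called (0.729). Of 19 genes of outer-segment lipids and retinoids, 8 fell and 7 rose (median 0.033, -0.62 centred). Agpat3, Adipor1 and Elovl4, which build and retain docosahexaenoic and very long-chain lipids of photoreceptors, fell by 2.43, 2.13 and 1.97. The desaturase Fads2 rose by 0.71 and Rlbp1, the retinaldehyde carrier of Müller glia and pigment epithelium, by 0.67, which were 0.058 and 0.011 when centred.

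Cone genes were close to WT as a group on the deposited scale. Of 16 measured, 5 were higher and 4 lower, and the median was 0.031, beside -0.0092 over all genes (-0.63 beside -0.67 when centred). On the centred scale 1 was higher and 13 were lower, where 85.1% of all genes were lower. The short-wavelength opsin Opn1sw read 12.86 and 12.75 in WT and 12.53 and 12.45 in rd1 (-0.32 ± 0.10, adjusted p = 0.00798). The middle-wavelength opsin Opn1mw read 11.39 and 11.13 and 11.10 and 10.89 (-0.27 ± 0.26, 0.477). For both opsins the rd1 arrays lay at or below the lower WT array, and the fall was called for the first only. That call ended without the WT array of PN28 (-0.27, adjusted p = 0.0921) or the rd1 array of PN35 (-0.28, 0.0769). A second, dimmer probe set of Opn1sw gave a difference of -0.84, so the size of the fall differs by probe set. Gnat2, the cone transducin, read 11.54 and 11.62 in WT and 11.73 and 11.34 in rd1 (-0.046 ± 0.093, 0.751). Arr3, the cone arrestin, read 11.10 and 10.92 and 11.24 and 11.01 (0.11 ± 0.14, 0.588). Neither was called, and in both the arrays of the genotypes overlapped.

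The cone phosphodiesterase subunits differed from each other. Pde6c, the catalytic subunit, read 9.08 and 8.99 in WT and 10.12 and 10.14 in rd1, a rise of 1.09 ± 0.12 (adjusted p = 3.55e-10), while Pde6h, the inhibitory subunit, read 11.25 and 11.21 and 10.92 and 10.24, a difference of -0.64 ± 0.22 (0.0205). On the centred scale Pde6c was at 0.44. The call of Pde6h rested on few arrays and ended without the WT array of PN28 (-0.62, 0.0880), the WT array of PN35 (-0.66, 0.0690) or the rd1 array of PN35 (-0.30, 0.431). Cngb3, a cone channel subunit, rose by 0.61 and Gnb3, a G protein subunit of cones and ON bipolar cells, by 0.36. These 2 rises were at -0.047 and -0.29 when centred, and that of Gnb3 was not called without the WT (0.31, 0.0524) or the rd1 (0.26, 0.110) array of PN28. Thrb, the thyroid hormone receptor of cone development, fell by 0.62. Grk1, listed with cones and with rods because in mice both use this kinase to quench opsins, fell by 3.15.

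**Figure D2:**
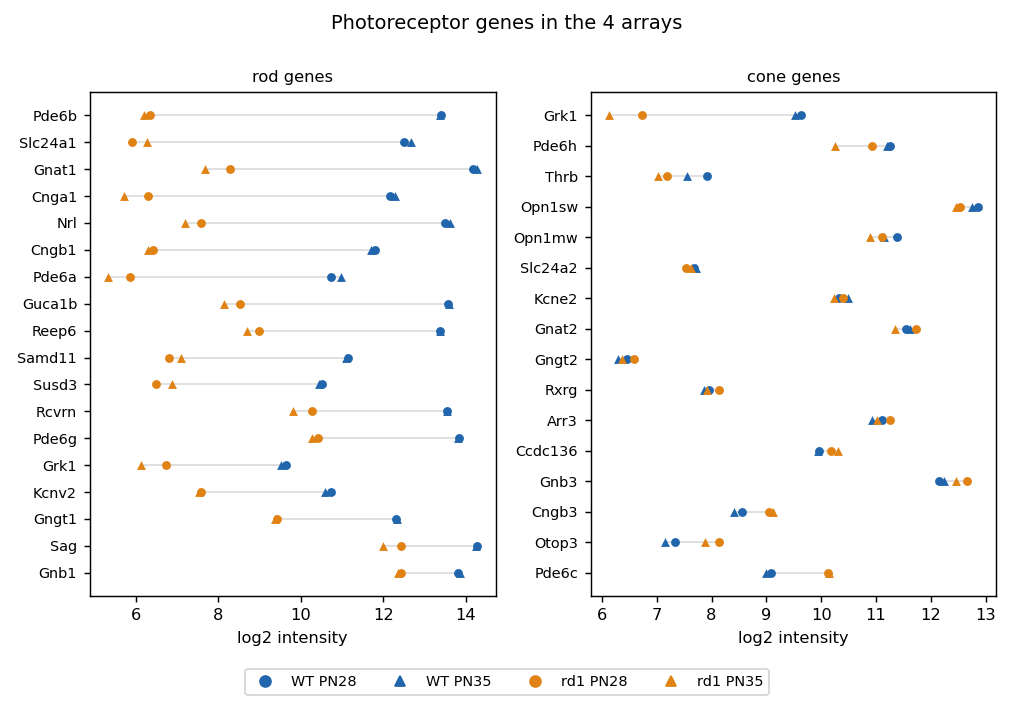
Log2 intensity (x axis) of the rod genes and the cone genes (rows) in the 4 arrays, with WT in blue, rd1 in orange, circles for PN28 and triangles for PN35. The rd1 arrays lie left of WT for all 18 rod genes, and they overlap or lie close to WT for most of the 16 cone genes, with Pde6c to the right.

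Neurons of the inner retina stood higher in rd1 on the deposited scale and close to or below WT on the centred one. Of 21 amacrine genes 19 rose and 0 fell (median 0.69), and of 21 ganglion cell genes 17 rose and 1 fell (0.71), against 22.5% of all genes higher. The centred scale is built on these lists, and their medians on it were 0.031 and 0.055. Slc32a1, the vesicular transporter of GABA and glycine, read 10.03 and 10.06 in WT and 11.18 and 11.13 in rd1 (1.11 ± 0.11, 0.45 centred), although the mean of its probe sets was 0.20 and was not called (0.198). Slc6a9, the glycine transporter of amacrine cells, rose by 0.82 (0.16 centred) and Tfap2c, an amacrine transcription factor, by 1.10 (0.45 centred). Chat and Th, which mark the sparse cholinergic and dopaminergic amacrine cells, were at 0.14 and 0.30 and were not called (0.431 and 0.0538). Pou4f1, a ganglion cell transcription factor, rose by 1.00 (0.35 centred) and Slc17a6, the glutamate transporter of ganglion cells, by 0.93 (0.27 centred). The only fall in the ganglion list was Sv2b, a synaptic vesicle protein (-0.66).

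Bipolar and horizontal cell genes had smaller medians. Of 18 pan-bipolar and OFF bipolar genes 16 rose and 1 fell (median 0.60, -0.053 centred). Fezf2, a transcription factor of some bipolar types, rose by 1.11 and Tacr3, the neurokinin 3 receptor of OFF types, by 1.09 (0.45 and 0.43 centred). Among 14 genes of rod bipolar cells and the ON cascade 9 rose and 1 fell (median 0.41, -0.25 centred). Lrrtm4, a synaptic adhesion protein of rod bipolar cells, read 7.44 and 7.31 in WT and 8.91 and 8.73 in rd1 (1.45 ± 0.21, 0.79 centred). Trpm1, the channel that opens when ON bipolar cells respond, was at 0.31 and was not called (0.124). Gnb5, a G protein beta subunit that photoreceptors also make, fell by 1.17. Of 9 horizontal cell genes 6 rose and 0 fell (median 0.44, -0.22 centred), with Lhx1, their lineage transcription factor, at 0.81 (0.15 centred).

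Receptors for inhibitory transmitters were among the lists with the highest share of rises. Of 14 GABA and glycine receptor genes 13 rose and 0 fell (median 0.76, 0.10 centred, where 4 were higher and 4 lower). The glycine receptor subunit Glra3 read 8.88 and 8.79 in WT and 9.93 and 10.21 in rd1 (1.23 ± 0.20, 0.58 centred), Glra2 rose by 1.21 (0.55) and the GABA receptor subunit Gabra4 by 1.18 (0.53). Of 21 glutamate receptor and transporter genes 15 rose and 1 fell (median 0.40, -0.26 centred). Grm5, a metabotropic receptor, rose by 1.36 (0.70 centred) and Gria3, an AMPA receptor subunit, by 1.06 (0.41). Of 21 vesicle genes 12 rose and 3 fell (median 0.26, -0.40 centred), and the falls were Cplx4, Stx3, the syntaxin of ribbon synapses (-0.88), and Sv2b. Of 18 potassium and sodium channel and transport genes 10 rose and 3 fell (median 0.45, -0.21 centred). The falls included Slc24a1 and Kcnv2, a potassium channel subunit of photoreceptors (-3.11), and the largest rise was Kcnd2, an A-type potassium channel (1.16, 0.50 centred).

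Genes of the glial lists were among the largest rises. S100a6, a calcium-binding protein, read 5.24 and 5.44 in WT and 7.94 and 8.19 in rd1, a difference of 2.73 ± 0.27 (6.61-fold, adjusted p = 2.41e-11), the largest called rise. Cebpd and Cebpb, transcription factors of the acute-phase response, read 6.99 and 6.87 and 6.03 and 5.89 in WT and 9.19 and 9.12 and 7.84 and 7.86 in rd1 (2.23 ± 0.14 and 1.89 ± 0.19). Gfap, the intermediate filament that marks glial reaction, read 7.49 and 7.52 in WT and 9.06 and 9.48 in rd1 (1.77 ± 0.22). In these 4 genes the rd1 arrays were alike at both ages and did not overlap WT. All stayed higher when centred, S100a6 at 2.07, Cebpd at 1.57, Cebpb at 1.23 and Gfap at 1.11.

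Of 26 genes of reactive glia 15 rose and 1 fell (median 0.72, 0.061 centred, where 11 were higher and 9 lower). Cd44, a hyaluronan receptor, rose by 1.82, A2m, a protease inhibitor of plasma, by 1.54, Cp, the copper carrier ceruloplasmin, by 1.35, Serpina3n, a serine protease inhibitor, by 1.35 and Lcn2, the iron-siderophore binder lipocalin, by 1.07. The fall was Edn2, an endothelin that stressed photoreceptors release, which read 6.17 and 6.38 in WT and 5.54 and 5.53 in rd1 (-0.74 ± 0.17). Nes and Timp1, further genes linked to glial reaction, were at -0.10 and 0.27 and were not called (0.668 and 0.123).

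Of 24 Müller glia genes 21 rose and 2 fell (median 0.70, 0.044 centred, where 11 were higher and 4 lower). Vim, an intermediate filament, rose by 1.21 (0.55 centred), Crym, a thyroid hormone binder, by 1.31 (0.65), Slc1a3, the glial glutamate transporter, by 1.04 (0.38) and Clu, a secreted chaperone, by 1.00 (0.34). The glutamine synthetase gene Glul rose by 0.45 and Aqp4, the water channel of glial endfeet, by 0.66, but they were at -0.20 and 0.0055 when centred. The call of Glul ended without the WT array of PN35 (0.39, 0.0536) and that of Aqp4 without the WT (0.62, 0.0777) or the rd1 (0.58, 0.100) array of PN28. Slc6a6, a taurine transporter that photoreceptors also make, fell by 0.90. Of 7 astrocyte genes, Gfap and Aqp4 among them, 6 rose and 0 fell (median 0.66, 0.0055 centred). Gja1, the gap junction protein connexin 43, read 6.39 and 6.77 in WT and 7.88 and 9.61 in rd1 (2.16 ± 0.29), so the rd1 arrays differed from each other by more than those of the genes above.

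Of 27 survival factors and their receptors 10 rose and 4 fell (37% and 14.8%, beside 22.5% and 13.3% of all genes, median 0.14, -0.52 centred). Ednrb, the endothelin receptor of glia, read 8.16 and 8.26 in WT and 9.19 and 9.69 in rd1 (1.23 ± 0.19). Igfbp5, a binder of insulin-like growth factors, rose by 1.06 (0.40 centred) by the reported probe set. Another probe set of Igfbp5, about as bright in WT, gave 0.026. Nxnl1, which encodes the rod-derived cone viability factor, read 9.04 and 8.90 in WT and 7.20 and 6.91 in rd1 (-1.91 ± 0.13). Fgf2, a survival factor, read 4.55 and 4.59 and 4.85 and 4.76 and was not called (0.23, 0.0768). Of 15 cytokine signalling genes 4 rose and 2 fell (26.7% and 13.3%, beside 22.5% and 13.3% of all genes, median 0.041, -0.62 centred), with Stat3 at 0.54 (-0.12 centred), its inhibitor Socs3 at 0.25 (not called, 0.117, but 0.84 and called at 3.39e-06 as the mean of its probe sets) and Pias3, a SUMO ligase that photoreceptors express, at -2.05.

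Microglia and macrophage genes were higher at the end stage too, with a smaller median than reactive glia genes. Of 29 measured 17 rose and 0 fell (median 0.47, -0.18 centred, where 5 were higher and 14 lower). Ctss, a lysosomal protease of microglia, read 9.14 and 9.38 in WT and 10.48 and 10.60 in rd1 (1.28 ± 0.12). P2ry12, the nucleotide receptor of resting microglia, read 6.31 and 5.73 and 7.30 and 7.25 (1.26 ± 0.15). C1qa and C1qc, subunits of the first complement component, rose by 1.20 and 1.24, and Csf1r, the receptor on which microglia depend, by 0.89. Aif1 and Trem2, which also mark these cells, were at 0.26 and 0.19 and were not called (0.129 and 0.279).

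Other inflammatory genes differed little. Of 25 complement, cytokine and chemokine genes 3 rose and 1 fell (median -0.043, -0.70 centred). Serping1, the inhibitor of the first complement component, was the largest rise and read 6.91 and 6.99 in WT and 8.60 and 9.08 in rd1 (1.89 ± 0.16). The others were Cx3cl1, the neuronal chemokine fractalkine (0.79), and Il18 (0.69). Ccl2, a monocyte chemokine, read 5.66 and 5.56 and 5.60 and 5.45 (-0.089, 0.605) and Tnf 6.85 and 6.73 and 6.63 and 6.67 (-0.14, 0.343), and neither was called. Of 16 antigen presentation genes 5 rose and 1 fell (31.2% and 6.25%, beside 22.5% and 13.3% of all genes, median 0.17, -0.49 centred). B2m, the light chain of class I molecules, read 10.40 and 9.93 in WT and 10.92 and 11.89 in rd1 (1.24 ± 0.26), with the higher value at PN28 in WT and at PN35 in rd1.

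**Figure D3:**
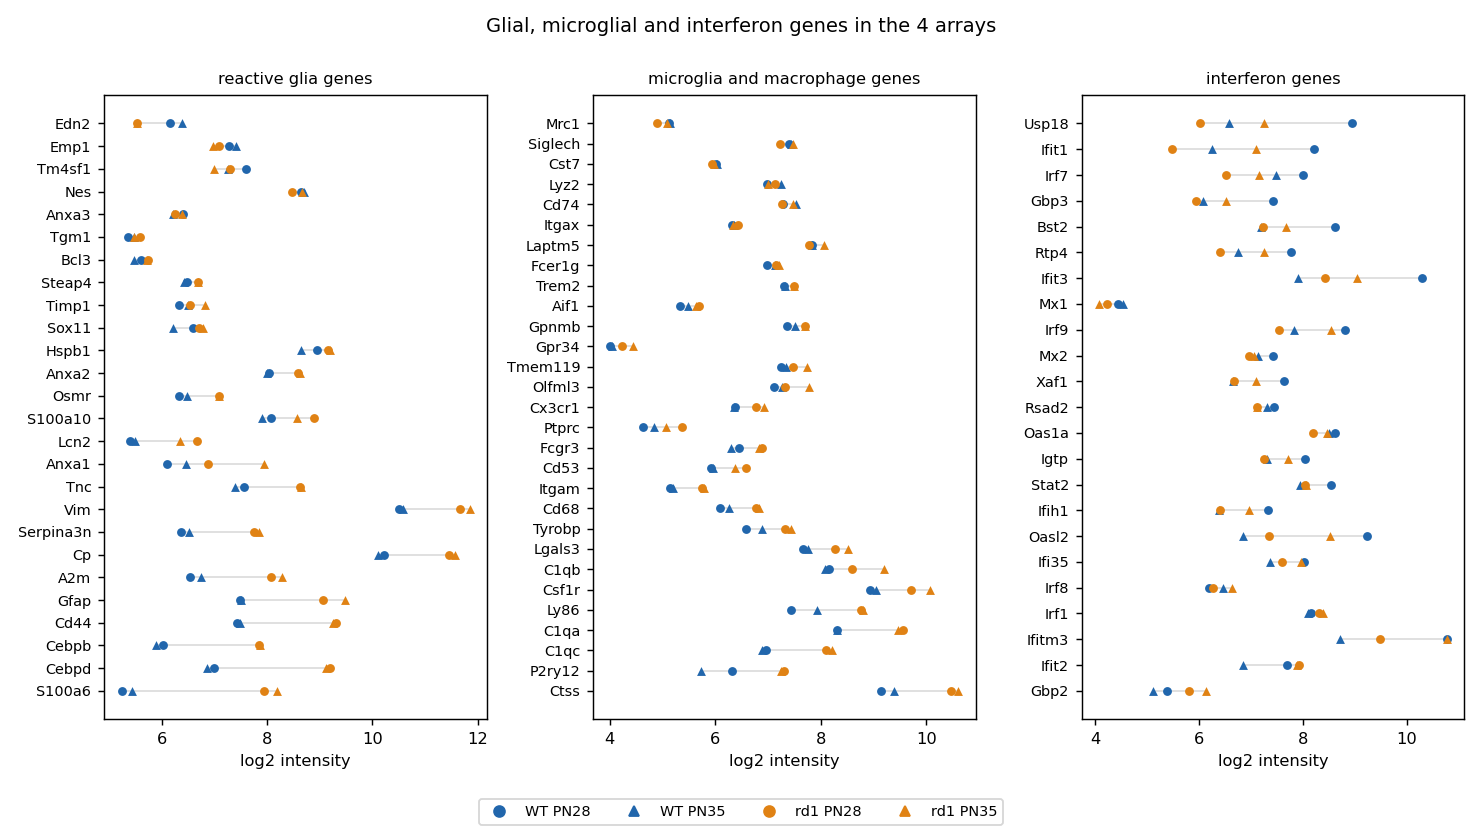
Log2 intensity (x axis) of reactive glia, microglia and interferon genes (rows) in the 4 arrays, with WT in blue, rd1 in orange, circles for PN28 and triangles for PN35. In most glial and in the lower microglial rows the colours separate, while in many interferon rows the PN28 array of WT is the highest and the PN28 array of rd1 the lowest.

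Interferon-induced genes varied between arrays of the same genotype. The list averaged 7.96 in the PN28 and 7.01 in the PN35 array of WT, and 7.01 and 7.54 in those of rd1, so that the median difference was -0.91 at PN28 and 0.47 at PN35. In the 25 WT arrays of PN5 to PN21 the list average lay between 6.11 and 7.72. Ifit1, an RNA-binding antiviral protein, read 8.22 and 6.24 in WT and 5.48 and 7.10 in rd1. Usp18, a protease that removes ISG15, read 8.94 and 6.58 and 6.02 and 7.26, and the membrane protein Ifitm3 10.78 and 8.71 and 9.49 and 10.78. The WT array was the higher one at PN28 and the rd1 array at PN35 for Ifit1 and Usp18, and Ifitm3 had its highest reads in those same 2 arrays. Of 23 genes 2 were called higher and 2 lower (median -0.26, -0.91 centred), with Irf7, a transcription factor of the response, at -0.90 ± 0.28 (0.0101). The call of Irf7 ended without the WT array of PN28 (-0.64, 0.170) or the rd1 array of PN28 (-0.59, 0.222). The cause of the spread between arrays was not tested.

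Of the 8 lists whose upstream windows were searched, the interferon list most often held GAAA, any 2 bases and GAAA in a row, the core of the interferon-stimulated response element, sought on both strands. It was found in 9 of 24 windows of interferon genes (37.5%) and in 473 of the 18109 windows searched (2.61%). The windows searched covered 19 of the 23 measured interferon genes. The next highest share was 3 of 15 windows of ganglion cell genes (20%). The stretches around it are shown for 4 members, those holding it whose rd1 minus WT difference was lowest. The match or its reverse complement (TTTC, any 2 bases, TTTC) is in capitals. Adjoining matches overlap in Gbp3 and Bst2.
Ifit1 (chr19:34640765-34640853, plus strand): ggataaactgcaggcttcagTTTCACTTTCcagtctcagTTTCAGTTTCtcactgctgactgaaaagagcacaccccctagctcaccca
Gbp3 (chr3:142559979-142560043, plus strand): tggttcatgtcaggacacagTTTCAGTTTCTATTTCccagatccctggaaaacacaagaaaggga
Bst2 (chr8:71537547-71537622, minus strand): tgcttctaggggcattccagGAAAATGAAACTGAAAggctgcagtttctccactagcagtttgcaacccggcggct
Ifit3 (chr19:34583353-34583456, plus strand): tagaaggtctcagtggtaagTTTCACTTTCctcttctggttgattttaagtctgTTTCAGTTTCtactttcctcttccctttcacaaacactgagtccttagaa
Gbp3, a guanylate-binding protein, read 7.42 and 6.07 in WT and 5.94 and 6.52 in rd1. Bst2, the virus-tethering protein tetherin, read 8.63 and 7.20 and 7.23 and 7.67, and Ifit3, of the family of Ifit1, 10.30 and 7.90 and 8.44 and 9.04. In each the WT array was the higher at PN28 and the rd1 array at PN35, and none was called over both ages.

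The title of the series names a failing proteasome, and proteasome genes were close to WT at the end stage. Of 14 genes of the 20S core 3 rose and 0 fell (median 0.085), and of 20 of the 19S regulator 6 rose and 1 fell (0.14), beside a background of 22.5% higher. When centred the medians were -0.57 and -0.52, with 14 and 19 genes lower and 0 and 0 higher. The largest rises were Psma6 in the core, which read 10.51 and 10.47 in WT and 10.93 and 10.83 in rd1 (0.39 ± 0.11, -0.26 centred), and Psmd7 in the regulator (0.47 ± 0.14, -0.19 centred). The call of Psmd7 ended without the rd1 array of PN28 (0.32, 0.176), without the WT array of PN35 (0.42, 0.0667) and with the mean of its probe sets (0.069, 0.505). The fall in the regulator was Psmc6 (-0.24), whose other probe sets gave 0.23 and 0.27. Psmb5, the core subunit with chymotrypsin-like activity, was at 0.19 and was not called (0.0553). Of 7 immunoproteasome and activator genes 3 rose and 0 fell (median 0.35, -0.30 centred). Psme1, the PA28 alpha activator, rose by 0.83 (0.17 centred) and Psmb10, a catalytic subunit, by 0.69 (0.037), whereas Psmb8 and Psmb9 were at 0.38 and 0.35 and were not called (0.103 and 0.0987). Of 16 ubiquitin and quality control genes 9 rose and 0 fell (median 0.23, -0.43 centred), led by Uchl1, a neuronal ubiquitin hydrolase (0.92, 0.26 centred), and the autophagy receptor Sqstm1 (0.74, 0.084).

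Chaperone genes moved both ways on the deposited scale. The inducible Hsp70 genes Hspa1b and Hspa1a read 9.43 and 9.65 and 8.90 and 8.80 in WT and 6.99 and 7.20 and 6.23 and 6.84 in rd1, differences of -2.44 ± 0.18 and -2.32 ± 0.24. Of 14 heat shock genes 8 rose and 3 fell (median 0.37, -0.28 centred, where 0 were higher and 7 lower). Hsph1, a nucleotide exchange factor of Hsp70, was at 0.60 (-0.055 centred). Of 23 endoplasmic reticulum stress genes 7 rose and 3 fell (30.4% and 13%, beside 22.5% and 13.3% of all genes, median -0.031, -0.69 centred). Asns, an asparagine synthetase that amino acid stress induces, rose by 0.97 (0.32 centred) and Herpud1, of the degradation machinery, by 0.84 (0.19). Atf4, the factor that drives many genes of this class, fell by 0.54.

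Immediate early genes were near WT. Of 20 measured 2 rose and 2 fell (median 0.017, -0.64 centred). Fos read 9.99 and 9.33 in WT and 9.67 and 9.46 in rd1 (-0.094 ± 0.20, 0.767), and Egr1 10.38 and 8.87 and 10.01 and 9.86 (0.31 ± 0.28, 0.435). Both overlapped between genotypes. Among the 4 genes called, the only change of 2-fold or more was that of Ier3, an early gene of stressed cells, which fell by 1.29. Of 25 cell death genes 6 rose and 3 fell (24% and 12%, beside 22.5% and 13.3% of all genes, median 0.058, -0.60 centred). Tnfrsf1a, a tumour necrosis factor receptor, rose by 0.98 (0.32 centred), the protease Capn2 by 0.92 (0.27) and the death agonist Bid by 0.79 (0.13), while the growth arrest gene Gadd45a fell by 1.04. Oxidative stress genes rose in 14 of 19 and fell in 2 (median 0.43, -0.23 centred). The metallothioneins Mt2 and Mt1 read 9.49 and 9.57 and 10.73 and 10.60 in WT and 11.11 and 11.07 and 11.92 and 11.95 in rd1 (1.56 ± 0.20 and 1.27 ± 0.18, and 0.91 and 0.61 centred). Gstm1, a glutathione transferase, rose by 1.07 (0.41 centred).

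Glycolysis genes moved both ways. Hk2, the hexokinase of photoreceptors, read 11.98 and 12.10 in WT and 9.96 and 9.71 in rd1 (-2.20 ± 0.13), and the lactate transporter Slc16a1 was at -1.37 and the lactate dehydrogenase Ldha at -0.68. The other dehydrogenase subunit, Ldhb, rose by 0.38 and the muscle-type phosphofructokinase Pfkm by 0.59 (-0.28 and -0.065 centred). In all, 5 of 18 glycolysis genes rose and 6 fell (median -0.073, -0.73 centred). Of 24 oxidative phosphorylation genes 2 rose and 4 fell, and all lay between -0.40 and 0.37 (median 0.044, -0.61 centred). Lysosome and autophagy genes rose in 9 of 19 and fell in 1 (median 0.23, -0.42 centred), and Ctss and Ctsh, proteases of phagocytes, were the largest at 1.28 and 0.99. Of 20 lipid and cholesterol genes 8 rose and 2 fell (median 0.33, -0.33 centred), with Fabp5, a fatty acid binder, at 1.12 (0.46 centred).

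Several further lists were read. Of 28 matrix genes 17 rose and 1 fell (median 0.51, -0.15 centred). The fall was Impg1, a proteoglycan around photoreceptor outer segments, which read 9.95 and 9.96 in WT and 6.03 and 5.58 in rd1 (-4.15 ± 0.18), and the largest rise was Tnc, or tenascin C (1.16, 0.50 centred). In the Wnt and Notch list 9 of 21 rose and 2 fell (median 0.31, -0.34 centred). The Notch ligand Jag1 read 10.26 and 10.41 in WT and 7.63 and 7.55 in rd1 (-2.74 ± 0.14), while the receptor Notch2 rose by 1.08 (0.42 centred). In the list of clock, dopamine and melatonin genes 9 of 19 rose and 2 fell (median 0.31, -0.35 centred). Drd4, the dopamine receptor of photoreceptors, read 11.53 and 11.67 and 9.19 and 8.95 (-2.53 ± 0.26), and the clock factor Arntl fell by 0.76. Drd1, a receptor of inner neurons, rose by 0.85 (0.20 centred) and the clock-controlled factor Dbp by 0.87 (0.21). Among 17 cell cycle genes 3 rose and 2 fell (median -0.080, -0.74 centred).

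**Figure D4:**
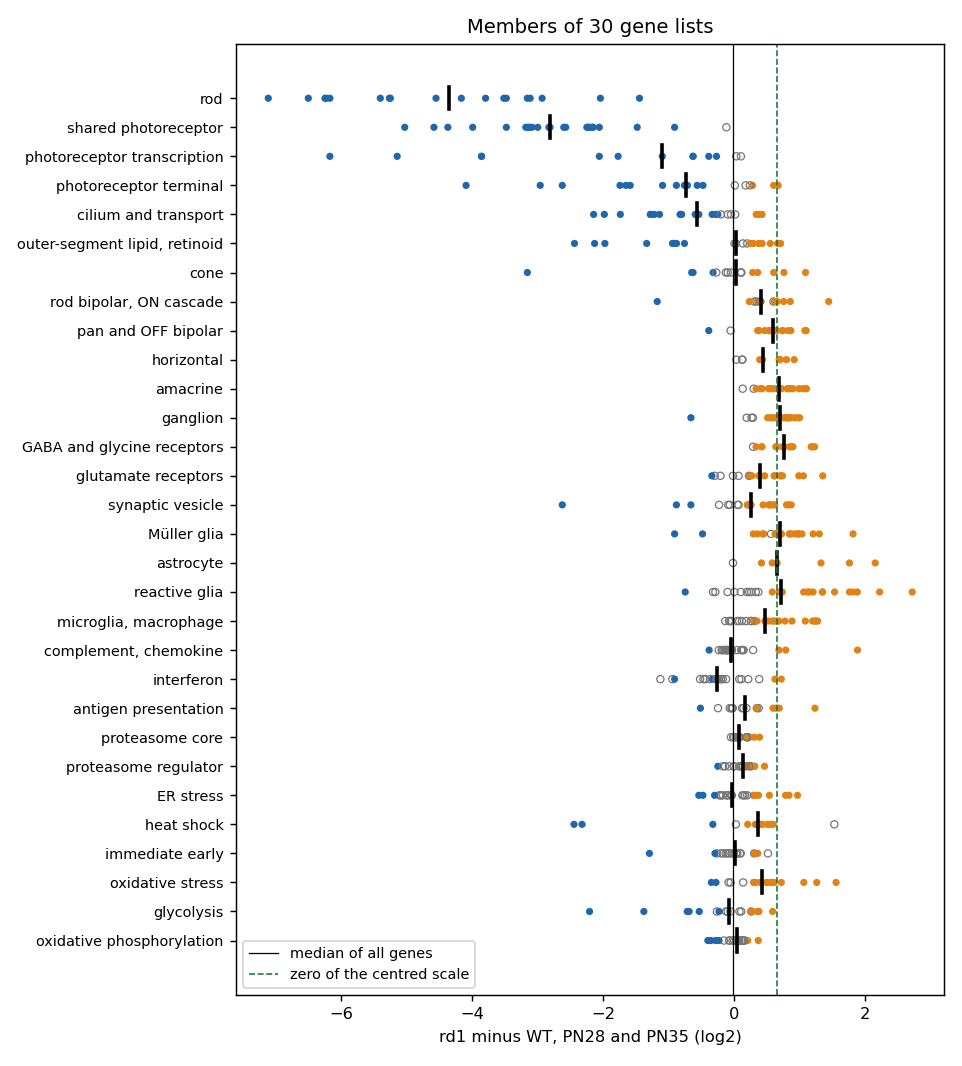
Log2 difference rd1 minus WT (x axis) of each measured member of 30 gene lists (rows), with called genes filled, uncalled ones open, the list median as a black bar, and the median over all genes and the centring shift as vertical lines. Photoreceptor lists reach far to the left, and neuronal and glial lists have medians right of 0, those of amacrine, ganglion, Müller and reactive glia genes just right of the zero of the centred scale.

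The largest rises outside these lists were Nupr1, a stress-induced nuclear protein, at 2.03 ± 0.40, Rnase4, a secreted ribonuclease, at 1.80 ± 0.12, Tmem47, a membrane protein of cell junctions, at 1.77 ± 0.21, and Mgst1, a microsomal glutathione transferase, at 1.77 ± 0.29. Nupr1 read 7.22 and 7.46 in WT and 9.19 and 9.54 in rd1 and Tmem47 7.22 and 7.64 and 9.12 and 9.28. The genotypes did not overlap in either. Near Pde6b (chr5:108388373-108431743, GRCm38.p6) on the same chromosome, Dipk1a (chr5:107908042-107987077), a kinase-like protein, read 8.00 and 7.91 in WT and 9.19 and 9.06 in rd1 (1.17 ± 0.13, 0.51 centred). Zfp33b, a zinc finger protein whose position is not given here, read 8.19 and 8.21 in WT and 7.27 and 7.29 in rd1 (-0.92 ± 0.14). The called genes around Pde6b were not counted.

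Transcripts of cells that surround or enter the retina were read as a check of the dissection. Of 13 crystallin genes 2 were called higher and 0 lower, yet the list median was 1.64 (0.99 centred). The 2 were Crym, the thyroid hormone binder also listed with Müller glia, and Cryz (-0.17 when centred). The other 11 were not called. The list averaged 6.95 and 8.54 in WT and 8.71 and 10.53 in rd1, so the PN35 array was the higher in each genotype. Cryaa, the alpha A crystallin, read 6.50 and 11.01 in WT and 9.92 and 13.06 in rd1 and was not called (2.74 ± 1.39, 0.129). Of 7 other lens genes 0 rose and 0 fell, with 0 genes called by limma (median 0.23, -0.43 centred), and their list averages of 6.72, 6.83, 6.77 and 7.22 in the WT and rd1 arrays differed by less. Whether lens tissue, or crystallins made in the retina, gave these reads was not tested.

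Of 19 pigment epithelium genes 7 were higher and 1 lower at the end stage (36.8% and 5.26%, beside 22.5% and 13.3% of all genes), and 3 were higher by 2-fold or more, where 1.37% of all genes were (median 0.11, -0.54 centred). The list averaged 7.81 and 7.88 in WT and 8.14 and 8.18 in rd1. Its defining isomerase Rpe65 read 7.91 and 8.11 in WT and 7.53 and 7.66 in rd1. The pigment genes Pmel and Dct rose by 1.36 and 1.10, and of 7 melanocyte genes, these included, 4 rose and 0 fell (median 0.45, -0.20 centred). Vascular genes rose in 4 of 20 and fell in 1 (median -0.050, -0.71 centred), and Abcc9, a pericyte channel subunit, was the fall (-1.05, or -0.25 and not called at 0.0709 as the mean of its probe sets). Red blood cell genes rose in 0 and fell in 0 of 4 (median -0.10, -0.76 centred).

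Muscle genes rose in 1 of 12 and fell in 2 (median -0.17, -0.83 centred), and their level differed between ages. The list averaged 6.37 and 6.83 in WT and 6.23 and 6.62 in rd1, whereas the highest of the 25 WT arrays of PN5 to PN21 was at 6.19 and the highest of the 25 rd1 arrays at 6.79. Tnnc2, a troponin of fast muscle, read 6.10 and 7.51 in WT and 5.48 and 6.82 in rd1, higher at PN35 in both genotypes. Its difference of -0.65 was not called (0.0806), but was called with age as a replicate block (0.00838). The part of muscle tissue in the PN35 arrays was not tested.

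Of 10 oligodendrocyte genes 2 rose and 0 fell (median -0.081, -0.74 centred). The rises were Cnp, a myelin enzyme, which read 9.05 and 9.21 in WT and 10.03 and 9.82 in rd1 (0.79 ± 0.087, 0.14 centred), and the myelin protein Mbp (0.29 ± 0.065, -0.37 centred), whose 8 probe sets were all higher, from 0.25 to 3.39. Mog and Mag, which mark myelinating cells, read 4.63 and 4.31 and 6.81 and 6.92 in WT and 4.35 and 4.17 and 6.82 and 6.81 in rd1 and were not called.

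**Figure D5:**
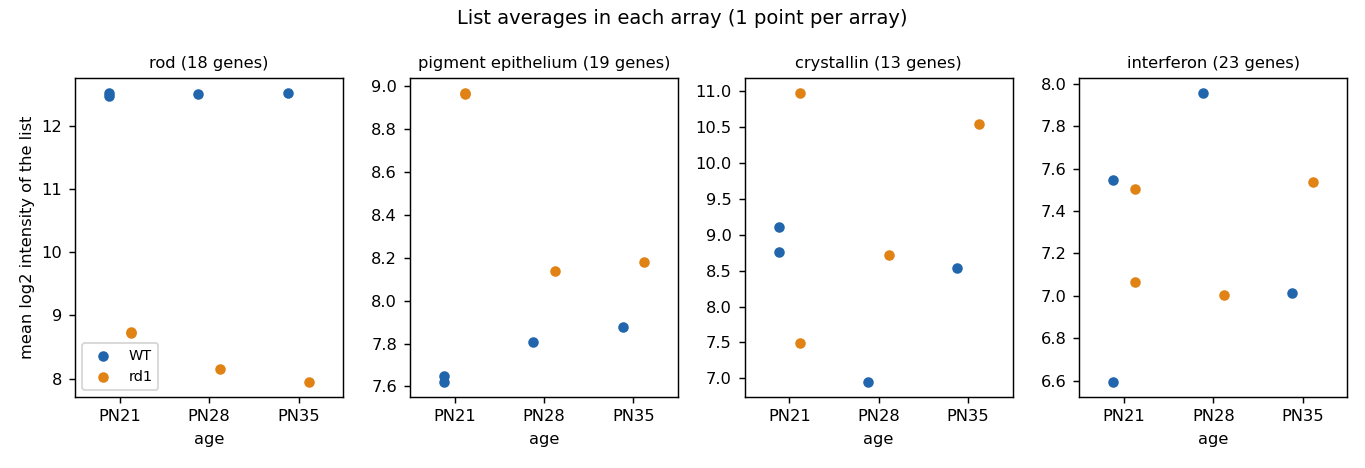
Average log2 intensity (y axis) of the rod, pigment epithelium, crystallin and interferon lists in each array of PN21, PN28 and PN35 (x axis), with WT in blue and rd1 in orange. Rod averages separate the genotypes at all 3 ages, pigment epithelium averages are high in the rd1 arrays of PN21, and crystallin and interferon averages differ between arrays of the same genotype.

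Most of what was seen at PN28 and PN35 was present at PN21, the latest age with 2 arrays per genotype. There 6435 genes (35.4%) were called, and 4749 genes were called with the same sign at both stages, 72.9% of the end-stage calls and 73.8% of those at PN21, with 11 called in opposite directions. The difference itself changed between PN21 and the end stage in 154 genes (0.846%), 50 upward (0.275%), that is in the direction of rd1 over WT, and 104 downward (0.572%). Under quantile normalization the split was 122 and 154, and when centred 28 and 2864. The count of 154 rested on most of the 8 arrays compared. It became 84 without WT PN21 replicate 1, 50 without WT PN21 replicate 2, 66 without rd1 PN21 replicate 1, 69 without the WT array of PN28, and 60 and 59 without the WT and the rd1 array of PN35, while it was 182 without rd1 PN21 replicate 2 and 201 without the rd1 array of PN28.

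Gnat1 was the rod gene that moved most. It read 14.19 and 14.15 in the WT arrays of PN21 and 10.33 and 10.30 in the rd1 arrays, so the difference went from -3.85 to -6.25, a change of -2.39 ± 0.39 (adjusted p = 0.000368). Over the 18 rod genes the rd1 arrays averaged 8.73 and 8.71 at PN21, 8.16 at PN28 and 7.94 at PN35, against 12.47 to 12.52 in the WT arrays of these ages, and 5 rod genes had a called downward change, among them Nrl (-1.59 ± 0.12) and Slc24a1 (-2.02 ± 0.37).

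Pigment epithelium genes made up 4 of the 5 largest downward changes. Rpe65 read 9.78 and 9.78 in the rd1 arrays of PN21 and 7.43 and 7.61 in the WT arrays, so its difference fell from 2.26 to -0.41 (-2.67 ± 0.34, 2.52e-06). Rgr, an opsin of this tissue, changed by -2.56 ± 0.35, Ttr, a thyroid hormone carrier, by -2.45 ± 0.55, and Lrat, which esterifies retinol, by -2.34 ± 0.19. The change of Ttr was not called without any one of 6 of the 8 arrays, with adjusted p of 0.0650 to 0.0705, and those of Rpe65, Rgr and Lrat stayed called without each array. Of the 19 genes 9 changed downward and 0 upward. The list averaged 8.96 and 8.97 in the rd1 arrays of PN21 and 7.62 and 7.65 in the WT arrays, above the end-stage averages given earlier. The share of pigment epithelium in these arrays was not tested. Of the 29 microglia and macrophage genes 23 were higher at PN21 (median 0.67) and 17 at the end stage (0.47), beside 23.8% and 22.5% of all genes. In 4 of them the difference changed downward and in 0 upward, beside 0.572% and 0.275% of all genes.

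Among the 5 largest upward changes, Aplnr, the apelin receptor of endothelium, changed by 1.83 ± 0.19 (5.64e-08) and Ets1, an endothelial transcription factor, by 1.74 ± 0.35 (0.00682). Aplnr read 6.93 and 7.09 in the WT arrays of PN21 and 5.48 and 5.27 in the rd1 arrays, and at the end stage 5.10 and 4.72 in WT and 5.05 and 5.15 in rd1. Ets1 read 6.35 and 6.34 and 5.12 and 4.97 at PN21 and 5.00 and 5.10 and 5.17 and 5.82 at the end stage. Both were thus higher in the WT arrays of PN21 than in the other arrays of these ages. Ap2b1, of the clathrin adaptor, changed by 1.26 ± 0.31, Cd93, an endothelial receptor, by 1.14 ± 0.24, and Mapk8ip1, a kinase scaffold, by 1.08 ± 0.25. Single left-out arrays ended the call of Ap2b1 in 5 cases (adjusted p up to 0.348), of Cd93 in 4 (up to 0.161), of Mapk8ip1 in 6 (up to 0.324) and of Ets1 in 1, the rd1 array of PN35 (0.106). With the mean of all probe sets the changes of Ets1 (0.48, 0.0614) and Mapk8ip1 (0.29, 0.406) were not called. The call of Aplnr held in all 8. A second probe set of Aplnr was brighter at the end stage and averaged 6.89 in WT and 6.69 in rd1. Its end-stage difference was -0.20, against 0.19 by the reported one.

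The rd1 minus WT difference was called different between PN28 and PN35 in a single gene. Ddx60, an interferon-induced helicase, changed its difference by 3.71 ± 0.67 from PN28 to PN35 (adjusted p = 0.0377; 1 of 18193 genes, 0.0055%, and 477 genes at an unadjusted p under 0.05). It read 7.30 and 4.83 in WT and 4.69 and 5.93 in rd1, so its pattern over the arrays was that of Ifit1. The count became 0 when arrays were centred (adjusted p = 0.103 for Ddx60), 0 without an intensity trend in the variances (0.0702) and 0 without the dimmest genes, among which Ddx60 fell. With 1 array for each genotype and age this test takes the spread from the other ages, and a missing call does not show that the 2 ages were alike. When each age was compared with WT by itself, limma called 4606 genes at PN28 (25.3%), 3107 higher (17.1%) and 1499 lower (8.24%), and 4588 at PN35 (25.2%), 2821 higher (15.5%) and 1767 lower (9.71%). The rod median was -4.36 at PN28 and -4.35 at PN35, the reactive glia median 0.78 and 0.65, and the microglia median 0.39 and 0.41.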

How the data were processed

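Expression of mouse neural retina was measured on 54 oligonucleotide arrays. The authors deposited linear intensities, 1 for each probe set in each array, made with RMA per the submitters' processing notes; the RMA version is not given in the sources used here. The analysis had been planned for log2 values, so log2 of the deposited intensity was taken. Of 45037 probe sets, 34945 name 1 gene symbol, 932 several and 9160 none; the brightest single-symbol probe set on average stood for each of 18193 genes.

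A linear model (limma 3.58.1 in R 4.3.3, intensity trend, Benjamini-Hochberg adjustment over all genes) was fitted to all 54 arrays, with 1 mean per genotype and age and PN28 and PN35 sharing a mean, which left 32 residual degrees of freedom. With separate means for PN28 and PN35 the residual degrees of freedom were 30, so the end-stage arrays add few. The spread behind the end-stage SEs and p-values is thus mostly that of other ages, and the number of arrays limits the precision. The procedure was tested on simulated data with noise drawn independently for each gene and array. That test does not cover sets of genes that shift together in 1 array.

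Members and the 50 gene lists (983 entries, 894 measured) were chosen with earlier results of these data known. Genes named are Pde6b and fixed anchor genes, the 10 largest rises and falls, list members, and the 5 largest changes each way per test of change. Alternatives were quantile normalization, centring on amacrine and ganglion genes, no dim genes (lowest 30%), the mean of all probe sets, an offset of 32, no trend, array weights, the 4 arrays alone, a replicate block and leaving out arrays. Promoter sequences are RefSeq's (GRCm38.p6).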

Additional observations from a re-analysis of the deposited data

Results flagged for a closer look

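The following genes are listed because limma's test found that the rd1 minus WT difference differed between 2 stages. Between PN28 and PN35 this was so for Ddx60, whose difference was 3.71 larger at PN35.

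Between PN21 and the end stage it was so for 22 of the genes the text names, in log2 units as end stage minus PN21. The rod and photoreceptor genes moved down, with Gnat1 at -2.39, Slc24a1 at -2.02, Nrl at -1.59, Cngb1 at -1.03, Esrrb at -0.996, Cnga1 at -0.97, the cone arrestin Arr3 at -0.93 and Rp1 at -0.80. Pigment genes and those of the pigment epithelium moved down too, with Rpe65 at -2.67, Rgr at -2.56, Ttr at -2.45, Lrat at -2.34 and Dct at -1.54. A2m and Mt1, of the glial and oxidative stress lists, were at -0.85 and -1.04. Upward changes were those of Aplnr (1.83), Ets1 (1.74), Ap2b1 (1.26), Cd93 (1.14) and Mapk8ip1 (1.08). Camk2d and Rnf207, named for their probe sets, were at 0.75 and -0.84.

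Leaving out 1 of the 8 arrays ended the call of Esrrb, Mt1 and Camk2d in all 8 cases, of Rnf207 in 6, of Rp1 in 5, of Arr3 in 4, of A2m and Dct in 3 and of Cnga1 in 1. With the mean of all probe sets the change was -0.13 for Esrrb (adjusted p = 0.845) and 0.014 for Camk2d (0.981), and it was not called either for Mt1 (-0.80, 0.0615), Rp1 (-0.47, 0.0769), Ets1 (0.48, 0.0614) and Mapk8ip1 (0.29, 0.406).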

How the results depend on the processing

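The count of 6518 end-stage calls was 5371 to 5564 without 1 array, and the other settings gave 6065 to 6902 except centring (15946) and single ages (4606 and 4588). Calls at 2-fold were 670 to 721 without 1 array and 1735 when centred. Higher calls were 3257 to 3729 without 1 array and 468 when centred, and lower calls 1835 to 2114, 15478 when centred and 1499 at PN28 alone. PN35 and PN28 arrays share only an age across genotypes; with age as a replicate block 6550 genes were called, 6491 of them shared with the unblocked calls, and of the 201 genes named it changed the call of Tnnc2 only, which was then called lower (-0.65, adjusted p = 0.00838). The PN35 minus PN28 change over genes correlated at 0.249 between WT and rd1.

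The change of the rd1 minus WT difference from PN28 to PN35 was called in 1 gene. It was called in 0 genes when centred, without dim genes and without the trend. With the mean of all probe sets it was called in 2, with the offset in 3 and with array weights in 5. Leaving out an array removes this contrast, so that was not run, nor were the 4 arrays alone or the block. The change from PN21, called in 154 genes, was 276 with quantile normalization, 2892 when centred, and 50 to 201 without 1 array. Of these, upward calls were 122, 28 and 12 to 94, and downward calls 154, 2864 and 38 to 147.

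Centring lowers every difference by 0.66 by construction and turned the sign of 35 named genes. In 27 of them the gene was called on either scale: Aif1 -0.40, Aplnr -0.47, Arr3 -0.54, Camk2d -0.48, Chat -0.52, Cngb3 -0.047, Cplx3 -0.048, Cryz -0.17, Ctbp2 -0.64, Fgf2 -0.42, Glul -0.20, Gnb3 -0.29, Hsph1 -0.055, Ldhb -0.28, Lrat -0.42, Mbp -0.37, Ndufa12 -0.64, Pfkm -0.065, Psma6 -0.26, Psmb5 -0.46, Psmd7 -0.19, Rxrg -0.55, Socs3 -0.41, Stat3 -0.12, Th -0.35, Timp1 -0.39 and Trem2 -0.47. The other 8, called on neither, were Ap2b1, Egr1, Ets1, Ifitm3, Psmb8, Psmb9, Trpm1 and Ttr (-0.35 to -0.20). With the mean of all probe sets Ctbp2 (-0.20), Camk2d (-0.67) and Ndufa12 (-0.71) turned. List medians that turned when centred were cone -0.63, outer-segment lipid and retinoid -0.62, cytokine signalling -0.62, 20S core -0.57, immediate early -0.64, cell death -0.60, oxidative phosphorylation -0.61, rod bipolar and ON cascade -0.25, pan and OFF bipolar -0.053, horizontal -0.22, survival factors -0.52, microglia -0.18, antigen presentation -0.49, immunoproteasome -0.30, 19S regulator -0.52, ubiquitin -0.43, heat shock -0.28, oxidative stress -0.23, lysosome -0.42, glutamate receptors -0.26, vesicle -0.40, matrix -0.15, lipid -0.33, lens -0.43, pigment epithelium -0.54, melanocyte -0.20, clock -0.35, channels -0.21 and Wnt and Notch -0.34. Under quantile normalization cone (-0.019), outer-segment lipid and retinoid (-0.031), cytokine signalling (-0.010), immediate early (-0.0082) and oxidative phosphorylation (-0.00031) turned. Of the 201 named genes, 193 or more kept their side of the threshold under array weights, the offset, no trend, quantile normalization, the mean of all probe sets and the 4 arrays alone.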

Other observations

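Gene families, some of whose members the lists also hold, were counted by symbol after their values had been seen. Of 14 families counted, those of cell adhesion and guidance held high shares of rises on the deposited scale, beside 22.5% of all genes. The leucine-rich repeat adhesion proteins of the Lrrtm, Flrt and Slitrk groups were higher in 13 of 13 (median 0.76, 0.10 centred), neurexins and neuroligins, which join synapses, in 4 of 5 (0.82, 0.16 centred), Eph receptors in 10 of 13 (0.42, -0.24 centred), their ephrin ligands in 6 of 8 (0.41, -0.24 centred) and the beta protocadherins in 14 of 22 (0.40, -0.25 centred). Robo and Slit genes were higher in 4 of 7 (0.52, -0.14 centred), cadherins in 10 of 21 (0.25, -0.41 centred), and semaphorins and plexins in 13 of 29 with 3 lower (0.23, -0.43 centred). None of these families was lower in a member but the last.

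Potassium channel genes were higher in 36 of 80 and lower in 4 (median 0.25, -0.41 centred), and orphan G protein-coupled receptors in 20 and 4 of 56 (0.046, -0.61 centred). Families with more falls were the intraflagellar transport genes, with 1 higher and 7 lower of 14 (-0.15, -0.81 centred), and WD repeat genes, with 9 and 17 of 57 (-0.10, -0.76 centred). Ribosomal protein genes were higher in 10 and lower in 3 of 53 (0.018, -0.64 centred), and axonemal dyneins in 1 and 1 of 9 (-0.0031, -0.66 centred).

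Probe sets of one gene sometimes disagreed. Of 391 genes called at 2-fold with several probe sets, 336 had all probe sets on the same side of 0, and 0 had one at 2-fold the other way. In 16 genes a bright second probe set was 4-fold or more from the reported one, and 5 of them are named here after their values were seen. Mbp, a myelin protein, read 5.58 and 6.86 in WT and 9.46 and 9.76 in rd1 by 1 probe set, a difference of 3.39, against 0.29 by the reported one. Camk2d, a calcium-dependent kinase, read 9.43 and 9.28 in WT and 6.47 and 6.52 in rd1, -2.86 against 0.18. Ndufa12, of respiratory complex I, was at -2.76 against 0.016, Whrn, a scaffold of photoreceptor and hair cells, at -2.42 against -0.41 and Rnf207, a ring finger protein, at -5.53 against -2.83.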
